A study of Oryza sativa Japonica Group with 12 samples.

Results

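Stem cortex is the tissue through which crown root (CR) primordia of rice grow before they emerge, and it was set here against the primordia of all stages taken as 1 group. The members are the 3 arrays whose titles name stem cortex, of 12 arrays in all, and the other 9 arrays hold CR primordia at an early, intermediate and late stage, 3 arrays each. All tissue came from wild-type Japonica rice of the cultivar Taichung 65, harvested 8 days after sowing, with no treatment or transgene in either tissue. From 6 stem bases, sections of 15 μm were cut for laser microdissection, and the tissue of 2 stem bases was pooled for each of 3 repetitions. Cortex came from the sections that also gave the primordia, so cortex and primordium arrays of 1 repetition share their plants, and the 9 primordium arrays stand for 3 pools of plants. Each array of the Affymetrix rice gene chip gave 1 log2 signal for each probe set, so a difference of 1 means 2-fold. Each of 24160 genes was counted once, through the probe set with the highest mean.

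Cortex is ground tissue, made mostly of large vacuolated cells with thin walls, and lies between the epidermis and the vascular tissue. Crown roots are shoot-borne roots that start as small groups of dividing cells inside the stem base and push out through the cortex. Growth of such vacuolated cells relies on water channels, called aquaporins, and on proteins that loosen the wall, while a primordium is a young meristem with cycling cells and a high demand for ribosomes. Because each sample is a mixture of cells, fewer cells of a type and less RNA per cell cannot be told apart.

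The 3 cortex arrays were not alike. Over all genes, cortex replicate 1 had correlations of 0.920 to 0.946 with the primordium arrays, against 0.875 and 0.900 with the other cortex arrays. Replicates 2 and 3 correlated at 0.777 to 0.838 and 0.837 to 0.891 with the primordium arrays, which correlated at 0.929 to 0.978 with each other. The brightest signals were also lower on those 2 arrays, with a 98th percentile of 8.46, 7.48 and 7.54 on cortex replicates 1, 2 and 3, and of 8.66 to 9.06 on the primordium arrays. The value of cortex replicate 1 lay inside the range of the 9 primordium arrays for 73.1% of genes, that of replicate 2 for 50.2% and that of replicate 3 for 55.3%. What made replicate 1 stand nearer to the primordia was not tested, and the counts over all genes and over several of the gene lists are given with and without it.

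In cortex 907 genes were higher than in primordia and 1344 were lower, which is 3.75% and 5.56% of the genes tested, at a Benjamini-Hochberg adjusted p under 0.05 from limma and a change of at least 1.5-fold. With the unadjusted p under 0.01 and the same fold, the thresholds used in the study, the counts were 1008 higher (4.17%) and 1492 lower (6.18%). Of the calls, 40.3% were higher in cortex. After quantile normalization of the deposited values, which gives every array the same distribution, this share was 59.4%, from 1049 higher and 716 lower genes. The counts rested on single cortex arrays. Without cortex replicate 1 they were 1750 higher and 2008 lower, without replicate 2 they were 321 and 296, and without replicate 3 they were 510 and 477. With the 3 primordium arrays of each repetition averaged first, so that 3 cortex samples stood against 3 primordium samples, 11 genes were higher and 4 lower. The 11 higher genes were LOC4346246, BURP17, LOC9272028, LOC4326326, LOC4333459, LOC4339270, LOC4339960, LOC4352085, LOC4343998, MIF3 and LOC4335481, and all 11 also lay above every primordium array on each cortex array. Of 88 called genes examined one by one, 47 kept their call whichever of the 12 arrays was left out. Without cortex replicate 1, 3 of the 88 lost it, without replicate 2 it was 37 and without replicate 3 it was 25. Without all arrays of replicate 1, 2 or 3, the call was lost for 12, 76 and 68 of the 88. With the primordium arrays averaged within each repetition 77 of the 88 lost the call, and with the replicate block added all 88 did. Most genes below were named by a fixed rule on signal or difference, while others, mostly further members of gene lists such as MT2A, WOX11 and KRP5, were chosen after their values were seen.

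**Figure D1:**
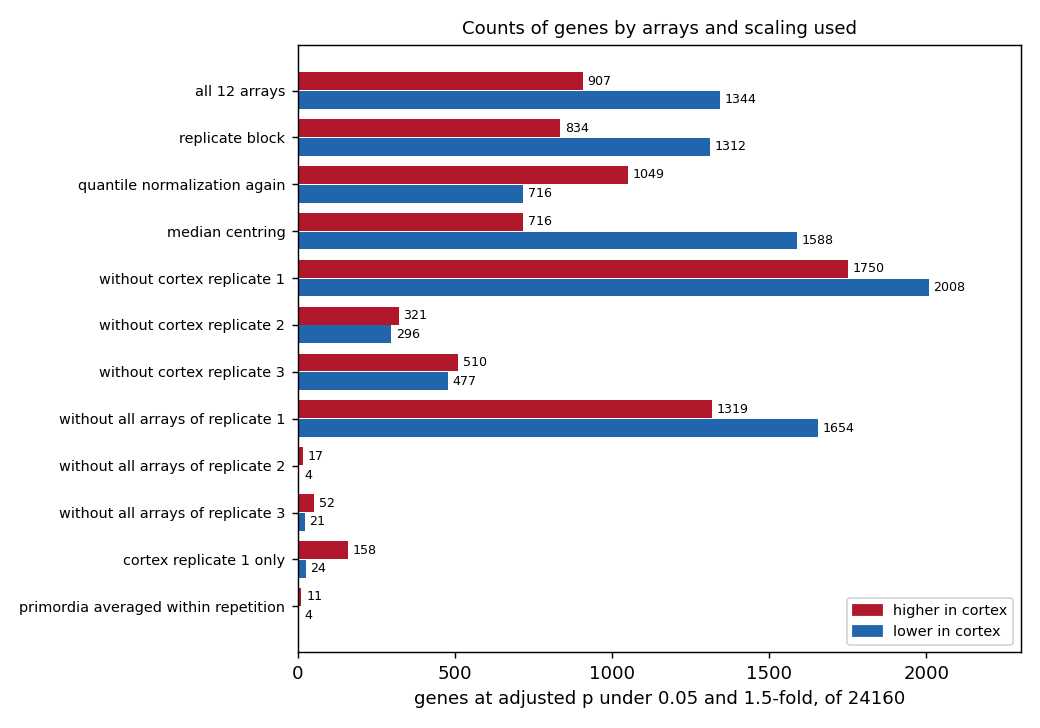
Number of genes higher (red) and lower (blue) in cortex than in primordia, of 24160, for the fit of all 12 arrays and for other choices of arrays and scaling (horizontal axis: genes). The plotted counts run from 11 higher and 4 lower with primordium arrays averaged within repetition to 1750 and 2008 without cortex replicate 1.

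The brightest genes of cortex were for the most part also the brightest genes of the primordia. An order of signals also depends on how well each probe binds, so it describes the arrays and not the number of transcripts. Of the 100 genes with the highest cortex mean, 77 were also among the top 100 of the primordia, 5 were higher in cortex and 53 lower. Of the top 500, 359 (71.8%) were shared, 41 were higher in cortex and 198 lower. Over all genes 3.75% were higher and 5.56% lower. The brightest signals were lower on cortex replicates 2 and 3, and quantile normalization cut the lower genes from 1344 to 716 over all genes. The counts among the brightest genes were not taken again after that scaling. The top place was held by RPS21 (LOC4332813), a protein of the small ribosomal subunit, with 11.47, 10.68 and 11.06 on cortex replicates 1, 2 and 3 and a lowest, median and highest value of 11.14, 11.42 and 11.58 over the 9 primordium arrays. These ranges overlapped (difference -0.34, standard error 0.14, adjusted p = 0.134). The second place was held by LOC4340273, unnamed and first in primordia, with 11.23, 10.63 and 10.51 in cortex and 11.53, 11.68 and 12.02 in primordia, which was lower in cortex (difference -0.95, adjusted p = 0.00896), a call narrowly lost without cortex replicate 2. RPL39C (LOC9268459), of the large subunit and seventh in cortex, had 10.80, 9.83 and 9.85 in cortex and 10.83, 11.07 and 11.14 in primordia. Here no cortex array reached a primordium array, and the gene was lower in cortex (difference -0.89, adjusted p = 0.0153), a call lost after quantile normalization (adjusted p = 0.0727) and without cortex replicate 2 or 3 (adjusted p = 0.0846 and 0.0685). H2B.10 (LOC4324495), a histone H2B in place 12 in both tissues, had 9.42, 9.40 and 10.96 in cortex and 9.63, 10.65 and 11.10 in primordia, which overlapped.

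A few very bright genes stood out as brighter in cortex. LOC4347415 was sixth in cortex and in place 103 in primordia, with 10.34, 10.35 and 10.44 on the cortex arrays and 8.17, 8.94 and 9.65 as lowest, median and highest primordium values. Every cortex array lay above every primordium array, and the gene was 2.62-fold higher in cortex (difference 1.39, standard error 0.28, adjusted p = 0.0149), a call lost without cortex replicate 2 or 3 (adjusted p = 0.0646 and 0.0569). LOC4330177, in place 19 in cortex and 383 in primordia, had 9.47, 9.86 and 9.75 in cortex and 6.51, 6.89 and 8.27 in primordia. It was 5.18-fold higher (difference 2.37, standard error 0.42, adjusted p = 0.00948), a call narrowly lost without cortex replicate 2. The gene tables used here give neither of them a function. LOC4342447, in place 78 in cortex and 1196 in primordia and likewise without a name, had 7.56, 9.02 and 8.42 in cortex and 4.99, 5.78 and 7.37 in primordia. The gap between the groups was narrow for this gene, at 0.18 between the lowest cortex and the highest primordium array. ADF5 (LOC4332220), an actin depolymerizing factor that shapes the actin cytoskeleton, had 7.43, 8.23 and 8.12 in cortex and 6.22, 6.62 and 6.96 in primordia and was 2.50-fold higher (adjusted p = 0.00372). In all, 28 of the top 500 cortex genes lay above every primordium array on each cortex array. This share was close to the 4.98% found over all genes. Another view of the same top 500 gave 25 genes that ranked beyond place 1500 in primordia.

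**Figure D2:**
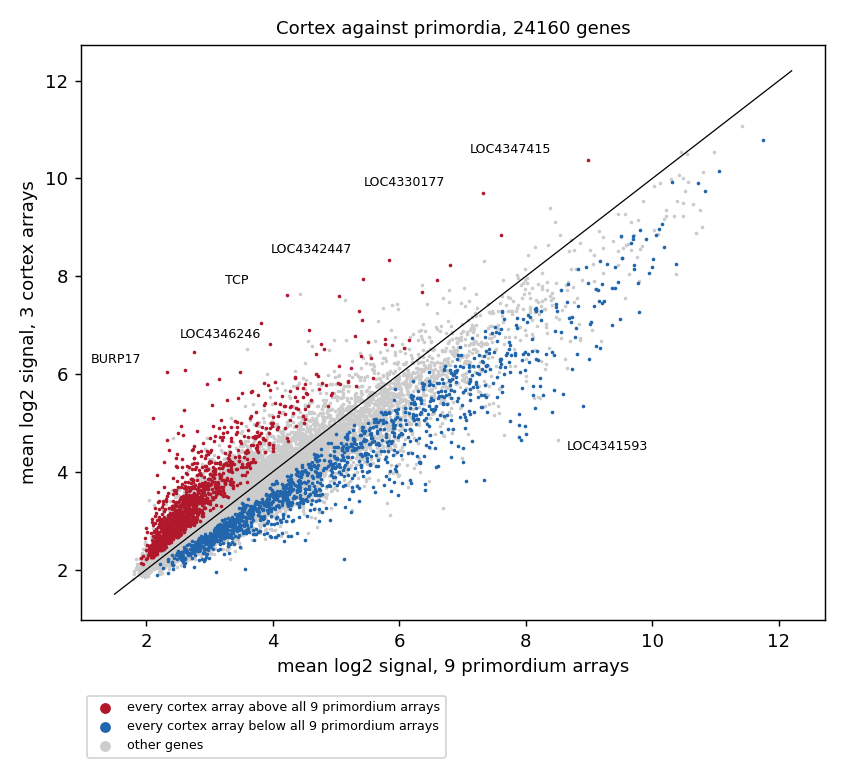
Mean log2 signal of each of 24160 genes over the 3 cortex arrays (vertical axis) against the mean over the 9 primordium arrays (horizontal axis), with the line of equal values. Red points are the 1202 genes above all 9 primordium arrays on every cortex array, blue points the 1342 genes below them. Red points lie mostly at low signals, and LOC4347415 and LOC4330177 are the brightest of them.

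Beyond the brightest genes, 1202 genes (4.98% of all) lay above all 9 primordium arrays on every cortex array, and 1342 (5.55%) lay below them. These genes were picked by their values, so the following describes them and tests nothing. Their difference ranged from 0.13 to 3.71, with a median of 0.55. It was at least 1 for 206 genes and at least 2 for 26, while 637 were under 1.5-fold. Of the 1202, 554 also passed the threshold for a call. Most were dim, and 921 of them (76.6%) had a cortex mean under 4, as had 82.9% of all genes. The gap between the lowest cortex and the highest primordium array had a median of 0.09 and reached 1 for 26 genes and 2.79 for BURP17. Just inside the rule stood LOC4328530, a cytochrome P450 by the study's annotation, whose lowest cortex and highest primordium value both rounded to 2.71, and likewise LOC4338535 at 4.78 and LOC4351984 at 2.60. Just outside stood LOC9266962 at 3.19, EXPA8 (LOC4327217), an expansin, at 2.63, and LOC4344081 at 2.48. Cortex replicate 1 was the lowest of the 3 cortex arrays for 661 of the 1202 genes (55.0%), and for 40.6% of all genes. Without it 3472 genes lay above all primordium arrays, without cortex replicate 2 it was 1541 and without replicate 3 it was 1811. With cortex replicate 1 alone it was 2935. Leaving out arrays can only keep or raise a count under this rule, so these rises do not test how firm it is.

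The gene with the largest difference among them was LOC4349330, annotated in the study as LTPL145 of the protease inhibitor, seed storage and lipid transfer protein family, small secreted proteins many of which bind lipids. It had 6.94, 7.35 and 3.81 on cortex replicates 1, 2 and 3 and 2.03, 2.23 and 3.24 as lowest, median and highest of the primordium arrays. Cortex replicate 3 was close to the highest primordium array and the other 2 were far above. The gene was 13.1-fold higher in cortex (difference 3.71, standard error 0.59, adjusted p = 0.00653). Beside it in the order of genes on the reference assembly lie LOC4349329 and LOC4349331, annotated as LTPL144 and LTPL146 of the same family. LOC4349329 had 6.32, 7.01 and 4.40 in cortex and 2.63, 3.08 and 3.60 in primordia and was 6.78-fold higher (adjusted p = 0.0065). LOC4349331 was dimmer, with 3.88, 3.99 and 3.50 in cortex and 2.39, 2.63 and 3.09 in primordia, and 2.18-fold higher (adjusted p = 0.00404). Probes of such related neighbours may share transcripts, which was not tested. Of the 1202 genes, 150 (12.5%) were next to another of them, while 9.7% of all genes had such a neighbour.

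BURP17 (LOC4349896) had the widest gap. Its family carries a BURP domain and includes RD22 of Arabidopsis, a gene induced by drought. It had 5.65, 6.64 and 5.96 in cortex and 2.11, 2.72 and 2.86 in primordia. No primordium array came near the cortex arrays, and the gene was 11.1-fold higher (difference 3.48, standard error 0.22, adjusted p = 0.000122), also with each of the 12 arrays left out in turn (highest adjusted p = 0.000802). LOC4346246, with no name in the gene tables, matched it with 6.88, 6.64 and 5.81 in cortex and 2.42, 2.69 and 3.20 in primordia and was 12.8-fold higher (adjusted p = 0.000122). LOC9272028, also unnamed, had 6.64, 7.41 and 7.07 in cortex and 3.09, 3.68 and 5.09 in primordia and was 9.33-fold higher (adjusted p = 0.000549). In this gene the early primordia, with a mean of 4.45, were nearer to cortex than the intermediate and late ones, with means of 3.71 and 3.30.

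Other genes among the 20 largest differences were dim in primordia and varied more in cortex. LOC4345663, with no annotation in the tables used, had 6.35, 6.03 and 5.04 in cortex and 2.58, 2.95 and 3.49 in primordia and was 7.15-fold higher (adjusted p = 0.000608). LOC4343786, likewise, had 7.05, 5.29 and 5.81 in cortex and 2.46, 3.52 and 4.55 in primordia and was 5.93-fold higher (adjusted p = 0.00701). In LOC4350553, LOC4351745 and LOC9272001 cortex replicate 2 was the highest array, at 6.39, 5.61 and 5.73, and they were 5.26-fold, 4.99-fold and 4.86-fold higher (adjusted p = 0.00721, 0.0021 and 0.00202). Among the genes of lowest adjusted p, LOC4343998 had close cortex values, 4.95, 5.17 and 5.00, against 3.15, 3.40 and 3.72 in primordia. It was 3.10-fold higher (difference 1.63, standard error 0.11, adjusted p = 0.00014). MIF3 (LOC4347053), named for mini zinc finger proteins, had 5.21, 5.21 and 5.03 in cortex and 3.27, 3.65 and 4.06 in primordia and was 2.82-fold higher (adjusted p = 0.00175). All 7 kept their call with each of the 12 arrays left out in turn.

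LOC4330080, a transcription factor of the TCP family by the study's annotation, showed the same order of stages. TCP factors act in the control of growth and cell division. It had 7.53, 6.95 and 8.34 in cortex and 2.55, 4.12 and 6.09 as lowest, median and highest in primordia, where the stage means were 5.17 early, 4.22 intermediate and 3.28 late. Between late and early primordia no gene, this one included, had an adjusted p under 0.05 from limma, while 1499 of all genes had an unadjusted p under 0.05. Against all 9 arrays the gene was 10.5-fold higher in cortex (difference 3.39, standard error 0.45, adjusted p = 0.00371). The TCP list held 7 genes with a symbol, of which PCF3 was higher (adjusted p = 0.0452) and PCF2 lower (adjusted p = 0.0241) in cortex. After quantile normalization, after median centring and with the replicate block, 0 were higher and 1 was lower. LOC4330080 has no symbol and was not in that list.

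**Figure D3:**
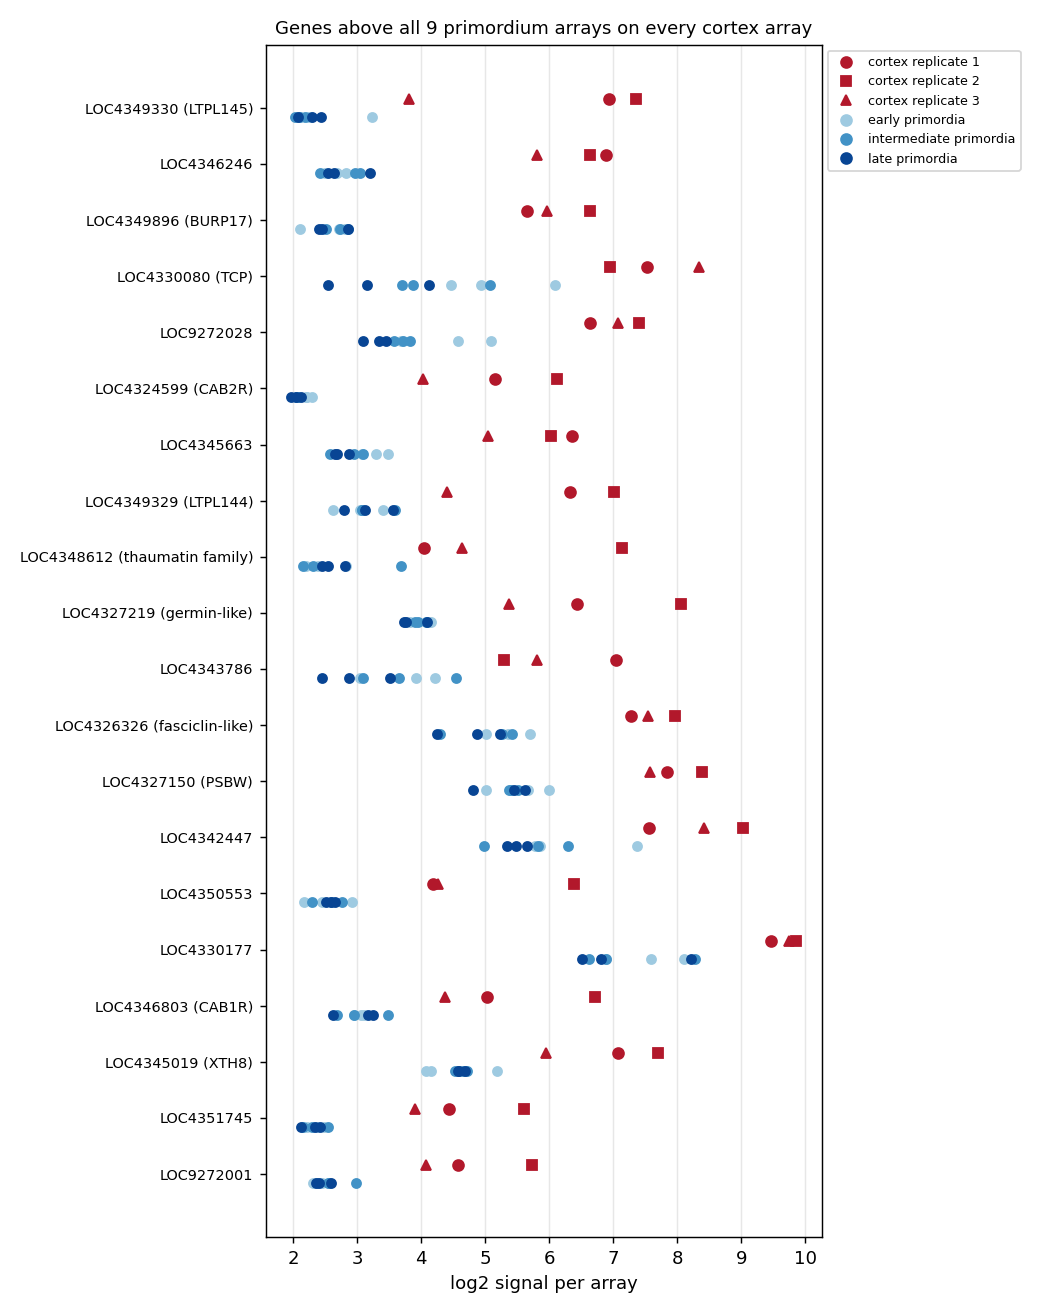
Log2 signal on each array (horizontal axis) for the 20 genes with the largest difference among those above all 9 primordium arrays on every cortex array (rows). Red marks above each line are the 3 cortex arrays and blue marks below it the 9 primordium arrays by stage, and cortex replicate 3 is the lowest cortex array for LTPL145 at 3.81 while the cortex arrays lie between 9.47 and 9.86 for LOC4330177.

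Several genes of light harvesting and the photosystems were higher in cortex. Of the 12 members of the light harvesting and photosystem list with a symbol, 7 were higher, 0 lower and 5 not called, with a median difference of 0.81, against 0.03 over all genes, of which 3.75% were higher. All 7 lay above every primordium array. The list median was 3.69, 3.60 and 3.34 on the cortex arrays and 2.53 to 2.92 on the primordium arrays, so cortex replicate 1 was not nearer to the primordia here. With cortex replicate 1 alone 6 of the 12 were called higher. The count stayed at 7 without cortex replicate 1, after quantile normalization, after median centring and with the replicate block. No member of the list was called with the primordium arrays averaged within each repetition, or without all arrays of replicate 2. Carbon fixation did not share this, with 7 of 8 members not called and a median difference of 0.05. Its 1 higher member was RBCS1, a small subunit of Rubisco (1.66-fold, adjusted p = 0.0259, and 0.133 without cortex replicate 2).

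CAB2R (LOC4324599) and CAB1R (LOC4346803), which encode chlorophyll a/b binding proteins of the light harvesting complex, were among the 20 largest differences. CAB2R had 5.16, 6.12 and 4.03 in cortex and 1.97, 2.08 and 2.30 in primordia, where it was among the dimmest genes. The files hold no measure of background, so its level in primordia, and with it the fold, is uncertain. The gene was 7.92-fold higher (difference 2.99, standard error 0.31, adjusted p = 0.00154). CAB1R had 5.03, 6.71 and 4.37 in cortex and 2.63, 3.06 and 3.48 in primordia and was 5.05-fold higher (adjusted p = 0.00751). PSBW (LOC4327150), a small protein of photosystem II, was the brightest of the list with 7.84, 8.38 and 7.58 in cortex and 4.81, 5.45 and 5.99 in primordia. It was 5.68-fold higher (difference 2.51, standard error 0.24, adjusted p = 0.000839) and held place 103 in cortex. RCABP69, another light harvesting protein, was 3.00-fold higher (adjusted p = 0.00123). RCABP89, of the same kind, was 1.86-fold higher (adjusted p = 0.0176, and 0.0569 without cortex replicate 3), and PETE, the copper protein plastocyanin that carries electrons to photosystem I, was 1.64-fold higher (adjusted p = 0.0065). ADI1 (LOC4344439), a ferredoxin that takes electrons from photosystem I, had 5.66, 7.01 and 3.74 in cortex and 3.13, 3.22 and 3.63 in primordia, so that replicate 3 barely cleared the primordia. It was 4.59-fold higher (adjusted p = 0.0205), but not without cortex replicate 2 (adjusted p = 0.0752). LOC4352085, which the study's annotation sets beside subunit L of photosystem I of Arabidopsis, had 4.55, 4.79 and 4.73 in cortex and 2.60, 3.04 and 3.27 in primordia. It was 3.20-fold higher (adjusted p = 0.000608) with a tight spread, and remained so with the primordium arrays averaged within each repetition.

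Genes of the cell wall were split between a few large differences and many small ones. LOC4345019, named XTH8 in the gene tables and OsXTH17 in the study, encodes a xyloglucan endotransglucosylase/hydrolase, an enzyme that cuts and rejoins xyloglucan chains between cellulose fibrils. It had 7.08, 7.70 and 5.95 in cortex and 4.07, 4.59 and 5.18 in primordia. All cortex arrays were above all primordium arrays, and it was 5.04-fold higher in cortex (difference 2.33, standard error 0.32, adjusted p = 0.0041). LOC4326326, a fasciclin-like arabinogalactan protein of the cell surface by the study's annotation, had 7.28, 7.97 and 7.54 in cortex and 4.25, 5.24 and 5.70 in primordia and was 5.84-fold higher (adjusted p = 0.00175). Of 46 expansins, which loosen the wall during growth, 3 were higher and 0 lower, beside 3.75% and 5.56% of all genes, and the median difference was 0.06. The counts were 2 and 1 after median centring, 3 and 1 with the replicate block and 5 and 1 without cortex replicate 1. These were EXPA2, 1.82-fold higher, EXPB3, 1.73-fold, and EXPB16, 1.56-fold, and all 3 lost the call without cortex replicate 2 (adjusted p = 0.0749, 0.111 and 0.0626). EXPB16 also fell under 1.5-fold without cortex replicate 1 (difference 0.55). Of 36 genes of the secondary wall, CAD8D and CAD9, named as cinnamyl alcohol dehydrogenases of lignin synthesis, were higher, by 2.61-fold and 1.69-fold, and lost the call without cortex replicate 2 (adjusted p = 0.147 and 0.0860).

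Further secreted or surface proteins were among the largest differences. LOC4327219, germin-like by the study's annotation, had 6.44, 8.06 and 5.37 in cortex and 3.74, 3.95 and 4.15 in primordia and was 6.34-fold higher (adjusted p = 0.00569). Germin-like proteins are glycoproteins of the cell wall, some with superoxide dismutase activity. LOC4348612, of the thaumatin family, had 4.04, 7.14 and 4.64 in cortex and 2.16, 2.46 and 3.68 in primordia. Its cortex replicate 2 stood far above the other 2 (6.39-fold higher, adjusted p = 0.0157). The lists of named germin-like proteins (9 genes), lipid transfer proteins (5), peroxidases (10) and pathogenesis-related proteins and chitinases (15) had no call in either direction. LOC4329582, which the study's annotation sets beside the harpin-induced family of Arabidopsis, had 8.48, 9.02 and 5.43 in cortex and 3.40, 4.00 and 5.59 in primordia, so cortex replicate 3 fell inside the primordium range. It was 9.29-fold higher (difference 3.22, standard error 0.67, adjusted p = 0.016), but not without cortex replicate 2 (adjusted p = 0.0878).

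The aquaporins that passed the test were higher in cortex. Of 28 members, 6 were higher and 0 lower, beside 3.75% and 5.56% of all genes. Their median difference was 0.33, against 0.03 over all genes, and it was 0.12 with cortex replicate 1 alone. The counts were 6 and 0 after quantile normalization, 4 and 0 after median centring, and 8 and 0 without cortex replicate 1. TIP1;1 (LOC4331608), a water channel of the vacuole membrane, had 6.17, 6.45 and 6.61 in cortex and 3.34, 4.53 and 5.64 in primordia. It was 3.32-fold higher (difference 1.73, standard error 0.34, adjusted p = 0.0133), a call lost without cortex replicate 2 or 3 (adjusted p = 0.0613 and 0.0560). PIP1;1 (LOC4330248) and PIP2;6 (LOC4335226) belong to the plasma membrane. PIP1;1 had 6.51, 6.31 and 6.29 in cortex and 4.85, 5.31 and 5.66 in primordia and was 1.97-fold higher (adjusted p = 0.00392). PIP2;6 had 5.87, 6.35 and 6.16 in cortex and 4.81, 5.30 and 5.62 in primordia and was 1.86-fold higher (adjusted p = 0.0052). Both kept the call with each array left out, but lost it without all arrays of replicate 2 or of replicate 3. The other 3 were TIP2;1, 2.32-fold higher, NIP3;1 (DTE1), a boron channel, 1.67-fold, and TIP4;1, with a difference of 0.59. Their cortex and primordium arrays overlapped, and each lost its call without at least 1 of the 12 arrays, NIP3;1 among others without cortex replicate 1 (adjusted p = 0.0852).

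Of 13 genes for metallothioneins and nicotianamine synthases, 3 were higher in cortex, 0 lower and 10 not called, with a median difference of 0.26, and without cortex replicate 1 the counts were 4 and 0. Over all genes 3.75% were higher. NAS3 (LOC4344361), a nicotianamine synthase that makes a chelator for iron and other metals, had 4.91, 8.30 and 6.33 on cortex replicates 1, 2 and 3 and 2.76, 3.41 and 5.68 in primordia. The arrays spread widely in both groups and overlapped. The gene was 7.57-fold higher (difference 2.92, standard error 0.64, adjusted p = 0.0192), and the call was lost without cortex replicate 2 or 3 (adjusted p = 0.0881 and 0.0620). Metallothioneins are small cysteine-rich proteins that bind metal ions. LOC4337596, listed as MT2C and MT2b, had 5.43, 5.92 and 5.81 in cortex and 3.73, 4.58 and 4.85 in primordia and was 2.53-fold higher (adjusted p = 0.00605). MT2A (LOC4325218) had 3.29, 3.77 and 3.20 in cortex and 2.24, 2.58 and 2.81 in primordia and was 1.79-fold higher (adjusted p = 0.0124), but not without cortex replicate 2 (adjusted p = 0.0641). No member of the starch and sucrose list (33 genes) was called, and 2 of 20 sugar transporters were higher. This count was 1 after quantile normalization and with the replicate block, and 0 after median centring and without cortex replicate 1.

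Of 46 homeobox genes, 8 were higher in cortex and 1 lower, with a median difference of 0.14, beside 3.75% and 5.56% of all genes. Without cortex replicate 1 the counts were 8 and 2. Hox16 (LOC4330610), Hox21 (LOC4331774) and Hox13 (LOC4331890) are homeodomain-leucine zipper factors, a class found only in plants. Hox16 had 4.56, 5.27 and 4.51 in cortex and 3.11, 3.41 and 3.75 in primordia and was 2.56-fold higher (difference 1.36, standard error 0.17, adjusted p = 0.0031). Hox21 was 2.38-fold higher (adjusted p = 0.0116, and 0.0609 without cortex replicate 2) and Hox13 1.86-fold (adjusted p = 0.00723). HOX12 was the 1 member lower in cortex, 1.64-fold lower (difference -0.71, adjusted p = 0.0245), a call lost after quantile normalization (adjusted p = 0.332) and without cortex replicate 3 (adjusted p = 0.104).

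KNOX genes are homeobox genes known from the shoot meristem, where they keep cells from differentiating, and they served here as markers of that tissue. Of 7 in the shoot meristem list, OSH1, OSH3 and OSH6 were higher in cortex and none was lower, beside 3.75% and 5.56% of all genes. The homeobox list above was defined to take in KNOX genes, so its counts are not separate from these. The list median was 3.21, 3.60 and 3.40 on the cortex arrays against 2.63 to 3.00 on the primordium arrays. The median difference was 0.37 and fell to 0.14 with cortex replicate 1 alone. OSH1 (LOC4333973) had 3.82, 4.43 and 4.94 in cortex and 2.57, 3.30 and 3.74 in primordia. Cortex replicate 1 was near the highest primordium array. The gene was 2.23-fold higher (difference 1.16, standard error 0.22, adjusted p = 0.0115), but not without cortex replicate 2 (adjusted p = 0.0557). OSH3 and OSH6 were 1.75-fold and 1.66-fold higher (adjusted p = 0.00896 and 0.00556), and OSH3 narrowly lost its call without cortex replicate 2. All 3 were also called without cortex replicate 1. Whether the cortex samples held cells that such markers label was not tested. Among markers of other tissues, 5 phloem genes had no call (median 2.89, 2.99 and 2.96 on the cortex arrays and 2.79 to 3.20 on the primordium arrays). Of 13 genes of cuticle and epidermis 0 were higher and 1 lower (2.68, 2.85 and 2.61 in cortex and 2.68 to 2.91 in primordia). The secondary wall list had medians of 2.59, 2.84 and 2.82 in cortex and 2.42 to 2.61 in primordia, so cortex replicates 2 and 3 lay above that range. Of its 36 genes 2 were higher and 0 lower, and without cortex replicate 1 it was 5 and 0. Above all primordium arrays on every cortex array lay 5 of the 36, beside 4.98% of all genes.

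Of 19 auxin response factors (ARF), 2 were higher in cortex and 0 lower, and of 28 Aux/IAA repressors 1 was called in each direction. Over all genes 3.75% were higher and 5.56% lower. The median difference was 0.04 for the ARF list and 0.06 for the Aux/IAA list, against 0.03 over all genes. ARFs bind the promoters of auxin-responsive genes, and Aux/IAA proteins hold ARFs back until auxin triggers their breakdown. ARF5 (LOC4328265) had 4.66, 3.86 and 4.02 in cortex and 2.27, 2.64 and 3.68 in primordia and was 2.67-fold higher (adjusted p = 0.00804). Cortex replicate 1 was the highest of all 12 arrays for this gene. ARF13 (LOC9269399) was 1.63-fold higher (adjusted p = 0.00444). The repressor IAA20 (LOC4327919) was 1.51-fold higher (adjusted p = 0.00744), just past the fold threshold and under it after quantile normalization and after median centring. IAA5 (LOC4325515) was 2.02-fold lower (difference -1.02, adjusted p = 0.0172), with 5.54, 4.38 and 4.42 in cortex and 5.58, 5.79 and 5.99 in primordia, and lost the call without cortex replicate 2 or 3 (adjusted p = 0.0944 and 0.0775). No gene of the GH3 and SAUR list (10), the NAC list (10), the WRKY list (6) or the MYB list (10) was called. Above all primordium arrays on every cortex array lay 3 GH3 and SAUR genes, 3 ARFs and 1 Aux/IAA gene. None of the NAC, WRKY or MYB lists did, and over all genes the share was 4.98%. Below all primordium arrays lay 2 Aux/IAA genes, beside 5.55% of all genes.

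WOX11 (LOC4344325), a homeobox gene known to drive crown root emergence and growth in rice, was among the genes above all primordium arrays. It had 2.90, 3.90 and 2.69 in cortex and 2.30, 2.38 and 2.62 in primordia, so all arrays but cortex replicate 2 were dim. It was 1.68-fold higher in cortex (difference 0.75, standard error 0.21, adjusted p = 0.0407), and the call was lost with the replicate block (adjusted p = 0.0551), after quantile normalization (adjusted p = 0.0622) and without cortex replicate 2 (adjusted p = 0.0926). It was the only member of the PLT, WOX and GRF list that was higher, against 3 lower of 21. Those 3 were GRF6, 2.84-fold lower (adjusted p = 0.00466), SCR1, 1.72-fold lower (difference -0.78, adjusted p = 0.0357, and 0.153 without cortex replicate 2), and GRF5. The call of SCR1 was also lost in the 2-group model (adjusted p = 0.158) and against the intermediate or the late stage alone. The study lists OsSCR1 as higher in primordia at the early stage only. GRF factors promote cell proliferation, and SCR1 acts in the layering of root tissues. Over all genes 3.75% were higher and 5.56% lower. The PLT, WOX and GRF list held only genes with a matching symbol or synonym, and the lowest difference in it was -1.5. The study reports OsPLT3 as higher in primordia by more than this at each stage, so OsPLT3 was not in the list. The counts therefore do not cover the PLT genes as a family.

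Most calcium signalling and heat shock genes were not called. Of 89 genes of calcium signalling, 7 were higher and 3 lower, beside 3.75% and 5.56% of all genes. The counts were 9 and 1 after quantile normalization, 5 and 3 after median centring and 9 and 5 without cortex replicate 1. CIPK15 (LOC4349594), a kinase known from the response of rice to low oxygen and lack of sugar, had 7.60, 7.73 and 7.69 in cortex and 5.50, 6.53 and 7.12 in primordia and was 2.50-fold higher (adjusted p = 0.0315). The cortex arrays were nearly equal, but the call was lost without cortex replicate 2 or 3 (adjusted p = 0.125 and 0.0982). CML10 (LOC4325762), a calmodulin-like calcium sensor, had 6.73, 8.12 and 7.16 in cortex and stage means of 6.98 early, 6.13 intermediate and 4.82 late in primordia. Early primordia thus overlapped cortex (2.57-fold higher in cortex over all stages, adjusted p = 0.0105, lost in the 2-group model). Among 47 heat shock proteins and factors 4 were higher and 1 lower. The counts were 4 and 0 after quantile normalization, 3 and 1 after median centring and 7 and 0 without cortex replicate 1. HSP18.8 (LOC4343386), a small chaperone, had 4.77, 5.83 and 5.47 in cortex and 3.59, 3.86 and 4.08 in primordia and was 2.81-fold higher (adjusted p = 0.0037). HSP19.0 (LOC4328736), another small chaperone, was 3.20-fold higher (adjusted p = 0.00998, and 0.0578 without cortex replicate 2).

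**Figure D4:**
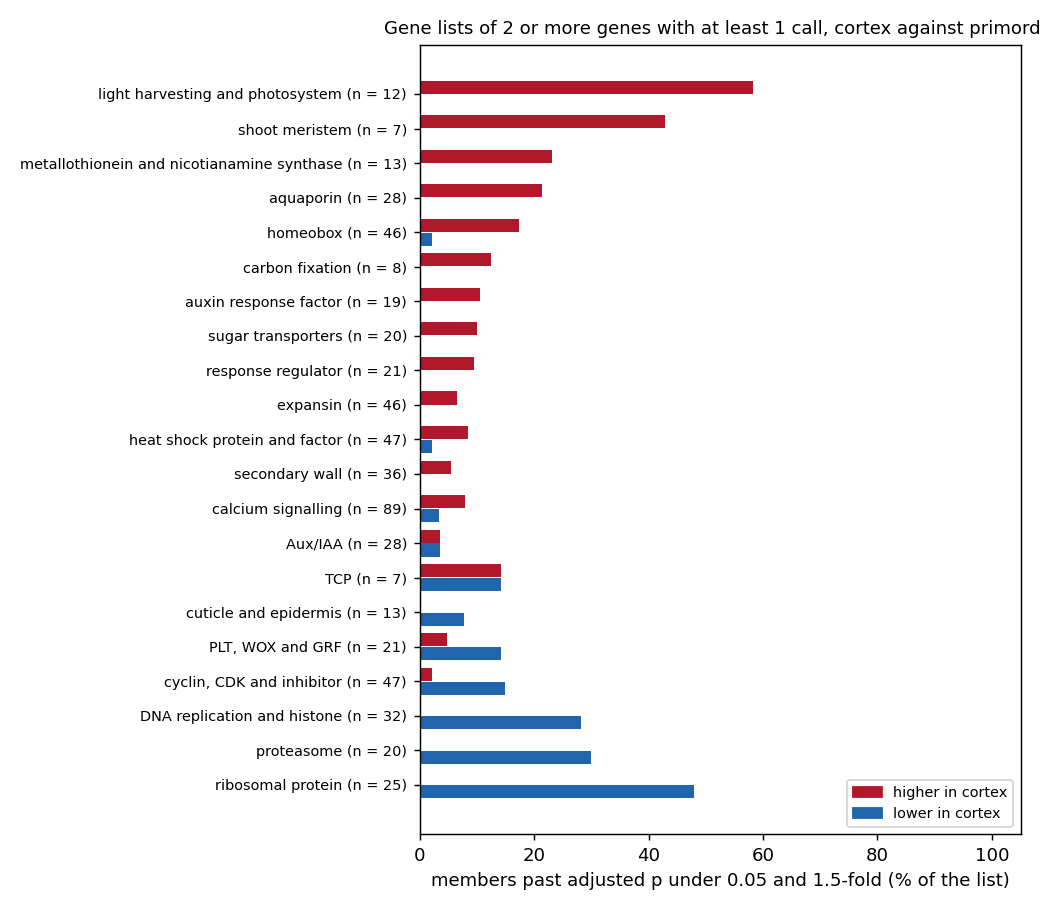
Share of each gene list (horizontal axis, percent of its members) higher (red) and lower (blue) in cortex, for lists of 2 or more genes with at least 1 call. The light harvesting and photosystem list has the highest share of higher genes, 7 of 12, and the ribosomal protein list the highest share of lower genes, 12 of 25.

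Some genes of the cell cycle, DNA replication, the ribosome and the proteasome were lower in cortex, while most members of these lists were not called. Among ribosomal proteins 12 of 25 were lower and 0 higher (median difference -0.58), among DNA replication and histone genes 9 of 32 and 0 (-0.49), among cyclins, CDKs and their inhibitors 7 of 47 and 1 (-0.23), and among proteasome subunits 6 of 20 and 0 (-0.37), beside 5.56% of all genes lower. These counts depended on the scaling, and after quantile normalization 2, 3, 2 and 1 were lower, with 0, 0, 1 and 0 higher. Without cortex replicate 1, 16, 6, 8 and 7 were lower and 1, 0, 1 and 0 higher. On cortex replicate 1 alone 1 ribosomal protein was lower and no member of the other 3 lists was called. The list medians of the ribosomal proteins were 5.84, 5.71 and 5.80 in cortex and 6.12 to 6.82 in primordia.

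KRP5 (LOC4331554), a CDK inhibitor, had 5.21, 4.25 and 5.69 in cortex and 6.00, 7.31 and 8.02 in primordia and was 4.01-fold lower in cortex (adjusted p = 0.0113). KRP1 (LOC4330816), an inhibitor of the same family, was instead 1.72-fold higher (adjusted p = 0.0221), and each lost its call without cortex replicate 2 (adjusted p = 0.0604 and 0.113). CDKB2-1 (LOC4346016), a kinase of mitosis, had 6.12, 5.54 and 5.86 in cortex and 6.39, 7.42 and 7.80 in primordia and was 2.58-fold lower (adjusted p = 0.0119). CKS1, which docks on CDKs, was 2.59-fold lower (adjusted p = 0.00544), PCNA, the sliding clamp of DNA replication, 2.29-fold (adjusted p = 0.025), and RPA3, a subunit of the factor that binds single-stranded DNA, 2.96-fold (adjusted p = 0.0108). CDKB2-1, CKS1 and PCNA lost the call after quantile normalization (adjusted p = 0.0516, 0.0630 and 0.0641), and CDKB2-1 and PCNA also without cortex replicate 2 (adjusted p = 0.0672 and 0.0752). RPL5B (LOC9271934), of the large ribosomal subunit, had 8.50, 6.11 and 6.61 on cortex replicates 1, 2 and 3 and 8.68, 8.99 and 9.42 in primordia. Replicate 1 was almost as high as the primordia and the other 2 far lower (difference -1.95, adjusted p = 0.0137, and 0.0680 without cortex replicate 2). RPS27AB (LOC4337883), a fusion of ubiquitin and a ribosomal protein, had 7.83, 6.85 and 7.84 in cortex and 8.93, 9.08 and 9.49 in primordia and was 3.14-fold lower (adjusted p = 0.00197), a call lost after quantile normalization (difference -0.67, adjusted p = 0.0521).

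Among single genes lower in cortex, LOC4352303, with a SWIB domain by the study's annotation, had 5.51, 4.57 and 3.85 in cortex and 6.10, 8.10 and 8.59 in primordia and was 9.67-fold lower (difference -3.27, standard error 0.39, adjusted p = 0.00207). SWIB domains occur in chromatin remodelling complexes. LOC4351876, which that annotation matches only to an Arabidopsis protein of unknown function, had 5.41, 2.95 and 3.07 in cortex and 6.60, 7.17 and 7.52 in primordia and was 9.53-fold lower (adjusted p = 0.0045). PSK1, a precursor of the growth peptide phytosulfokine, had 3.98, 3.97 and 3.31 in cortex and 4.04, 6.53 and 7.60 in primordia. It was 6.26-fold lower (difference -2.65, adjusted p = 0.0052), and 1 of the 4 genes that stayed lower with the primordium arrays averaged within each repetition. Its call was lost against the late stage alone and without all arrays of replicate 2. Over the settings tried, its difference ran from -3.59 to -1.47.

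The genes above all primordium arrays differed from the 3 stages by similar amounts, with a median difference of 0.52 from early, 0.59 from intermediate and 0.56 from late primordia. Taken against 1 stage at a time, 218, 468 and 337 of the 1202 were called higher in cortex than in early, intermediate and late primordia. Over all genes 230, 606 and 397 were. The 1202 were picked for high cortex values on these same arrays, so their direction was given and these counts test nothing. The late mean was below the early mean for 754 of them (62.7%), against 50.6% of all genes, and the stage means fell in the order early, intermediate, late for 297 (24.7%), against 19.8%. Few of these shifts were large. At an unadjusted p under 0.05, 27 of the 1202 (2.25%) were lower in late than in early primordia and 7 (0.582%) were higher, while over all genes the shares were 3.32% and 2.88%. No gene passed the adjusted p in that comparison.

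Some genes differed more among the cortex arrays than between cortex and primordia. The SD over the 3 cortex arrays had a median of 0.215 over all genes and was above 1 for 397 genes. The within-stage SD of primordia, pooled over the 3 stages and so drawn from 9 arrays, had a median of 0.182 and was above 1 for 19. An SD from 3 arrays scatters more widely than a pooled one, so these counts are not on equal terms. For 225 of the 397 the array farthest from the other 2 was replicate 1, for 124 replicate 2 and for 48 replicate 3. In 133 of them replicate 1 lay inside the primordium range with both other cortex arrays below it. LOC4341593 was such a gene, with 8.21, 2.94 and 2.83 on cortex replicates 1, 2 and 3 and 7.38, 8.54 and 9.24 in primordia. ADF10 (LOC4349142), an actin depolymerizing factor, had 6.81, 1.84 and 2.76 in cortex and 4.11, 6.76 and 7.63 in primordia. GER2 (LOC4344839), named as a germin-like protein, had 7.79, 2.44 and 6.16 in cortex and 4.37, 6.68 and 8.02 in primordia. LOC4343033 went another way, at 9.22 on cortex replicate 1, at 2.44 and 2.45 on the other cortex arrays and at 2.18 to 2.82 on all primordium arrays. A lectin named Agglutinin (LOC4335068) had 8.03, 2.69 and 2.78 in cortex, and stage means of 2.52 early, 4.19 intermediate and 7.35 late in primordia. Of these 5 genes only LOC4341593 passed the test between cortex and primordia (difference -3.85, adjusted p = 0.0261), and not without cortex replicate 2 or 3 (adjusted p = 0.137 and 0.113).

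**Figure D5:**
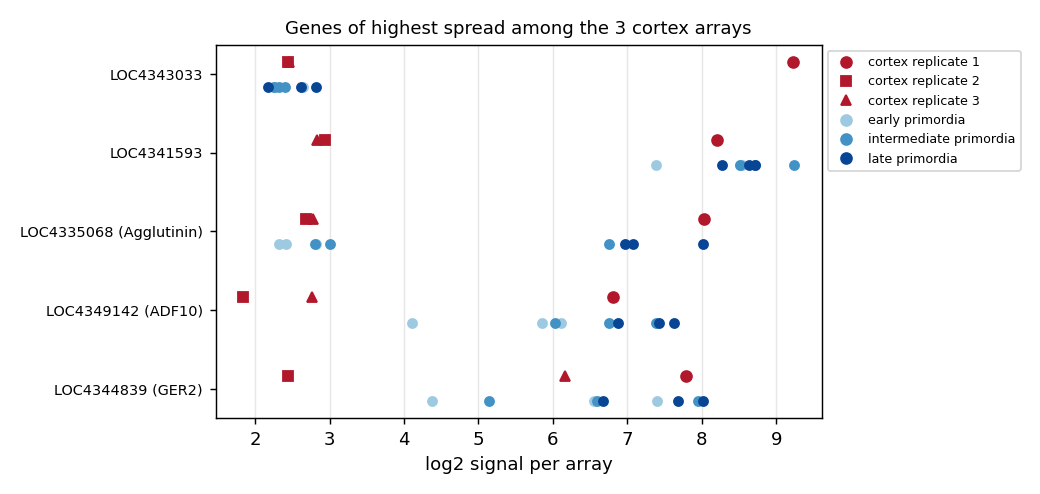
Log2 signal on each array (horizontal axis) for the 5 genes with the highest SD over the 3 cortex arrays (rows), with cortex in red above each line and primordia in blue by stage below it. Cortex replicate 1 lies among the primordium arrays for LOC4341593, ADF10 and GER2, and stands alone at 9.22 for LOC4343033.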

How the data were processed

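Laser-microdissected stem cortex and CR primordia of wild-type Taichung 65 rice were hybridised to 12 Affymetrix rice gene chips, 3 for each of 4 tissues. The authors deposited log2 values for 36643 probe sets, normalized with RMA according to the study's methods, whereas the submitters' processing notes list GCRMA and Affymetrix Expression Console, and which method was used was not settled. They were used as deposited. The platform annotation gave 1 gene for 24161 probe sets, several for 90 and none for 12392, and 24160 genes entered the tests, all matched to the RefSeq gene table. Annotations of unnamed genes are those of the study's supplementary tables.

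limma 3.58.1 in R 4.3.3 fitted means of the 4 tissues and the contrast of cortex minus the mean of the 3 stages (eBayes prior degrees of freedom 2.55), with Benjamini-Hochberg adjustment over all genes. All adjusted p-values are from limma. The number of arrays limits the precision. The fit was tested on simulated data. Members and gene lists were chosen with earlier results of these data known. Named by rule were the 15 brightest cortex genes, the 20 with the largest difference above all primordium arrays, the 10 with the lowest adjusted p, the 5 largest falls, up to 3 members of each list by cortex mean, the 3 just inside and outside the rule, the 5 of highest cortex SD, and OsXTH17, BURP17 and CAB2R; not all are described. By the study's design, arrays of 1 repetition share a pair of stem bases. Deviations of cortex and primordium arrays of the same number correlated at -0.0156, -0.107 and 0.121 over genes. Alternatives covered the replicate block, model, scaling, filter, prior and left-out arrays.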

Additional observations from a re-analysis of the deposited data

Results flagged for a closer look

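Over the 9 primordium arrays, 10 of 101 genes had 1 array far from the others, measured as the gap to the nearest array over the whole range. Chance alone gives such a gap in about 1 of 20 groups, and the 9 arrays span 3 stages.

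For LOC4349330 (LTPL145) the share was 0.670, with 3.24 on early replicate 2 and 2.43 on the next array. NAS3 (LOC4344361) stood apart on the same array, at 5.68 against 3.85, with a share of 0.625. On early replicate 1, TIP2;1 (LOC4330207) had 3.22 against 2.50 (share 0.617) and HSP19.0 (LOC4328736) had 5.29 against 4.38 (share 0.541), while ADF10 (LOC4349142) was lowest there, at 4.11 against 5.86 (share 0.499). Intermediate replicate 2 was highest for LOC9272001, at 2.99 against 2.59 (share 0.591), and for LOC4348612, at 3.68 against 2.83 (share 0.561). Late replicate 3 was lowest for LOC4352303, at 6.10 against 7.45 (share 0.544), and for PCNA (LOC4331062), at 4.52 against 5.50 (share 0.526). Late replicate 2 was lowest for RPS21 (LOC4332813), at 11.14 against 11.37 (share 0.533).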

How the results depend on the processing

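With 3 cortex arrays from 3 pools of plants, the counts followed the choice of arrays. Leaving out arrays moved the genes higher in cortex between 17 and 1750 and the genes lower between 4 and 2008; both low ends came without all arrays of replicate 2 and both high ends without cortex replicate 1. Genes above all primordium arrays ran from 1257 to 3472 and genes below from 1362 to 3152. Both of these counts can only stay or rise when arrays are left out. With cortex replicate 1 alone, 158 genes were higher, 24 lower, 2935 above and 3569 below. With the replicate block 834 genes were higher and 1312 lower, and of the 88 called genes examined one by one only WOX11 lost its call. With primordium arrays averaged within repetition, 11 were higher and 4 lower, and 77 of those 88 lost their call; with the replicate block added to that, 0 and 0, and all 88 lost it. Quantile normalization gave 716 lower genes and turned the difference of CAM1 (LOC4324384) to 0.35 (adjusted p = 0.259), against -0.67; median centring gave 716 higher and 1588 lower. A margin of 1.5-fold left 79 genes above and 58 below, and a filter at the median signal left 506 above. Comparison within repetition only gave 2149 above and 2450 below. A margin or filter can only lower these counts, and comparison within repetition can only raise them. The causes were not tested.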
